A study of Mus musculus with 18 samples.

Results

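A set of 10 immediate early and AP-1 genes was followed across stromal and lymphatic endothelial cells of the mouse small intestine: Fos, Fosb, Fosl2, Jun, Junb, Jund, Egr1, Ier2, Atf3 and Dusp1. They were chosen by symbol, with earlier results of these data known. All 10 were found, each on 1 row, among the 23238 distinct gene symbols of the 18 count tables. RNA came from FACS-sorted cells of adult C57BL/6J mice in 4 groups. PDGFRb+ intestinal stromal cells (IntSCs) and lacteal lymphatic endothelial cells (LECs, the cells lining the lymphatic capillary of each villus) were labelled either PDGFRb+-CreERT2-Tomato+ (WT) or with the same alleles plus Lats1f/f and Lats2 f/f (KO). IntSCs gave 6 WT and 5 KO libraries, and LECs gave 4 WT and 3 KO libraries. The Cre recombinase is tamoxifen-inducible and is driven by Pdgfrb, so that the deletion of Lats1 and Lats2, the Hippo kinases that keep YAP and TAZ out of the nucleus, is directed at PDGFRb+ cells. LECs of the KO group come from mice that carry the deletion in neighbouring cells. All groups carry the Cre and the tdTomato reporter, which also served to sort IntSCs. Reporter mice of the IntSC experiment were induced at 8 weeks of age and analysed at 10 weeks, and a separate timing for the LEC libraries was not found in the sources used here.

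Immediate early genes are transcribed within minutes of a stimulus, without new protein synthesis, when kinase cascades activate factors that already sit at their promoters. Proteins of the FOS family pair with those of the JUN family through leucine zippers to form AP-1, a dimer that binds DNA and activates or represses many stress, growth and matrix genes. JUN and JUNB differ in how strongly they activate transcription, JUND is usually present without a stimulus, EGR1 is a zinc finger factor induced by the same signals, and DUSP1 is a phosphatase that switches the inducing kinases off again. The transcripts of this class are short-lived as a rule, and they are known to rise when tissue is digested with enzymes. Here the small intestine was digested with enzymes before sorting, after removal of its muscle layer and of epithelial cells. The depletion and sorting steps differed between IntSCs and LECs, so that cell type and handling cannot be told apart in these data. In its single-cell data, the study found high Junb and Fosb in vFB1, a subset of villus fibroblasts. It names dissociation as a possible source of such signals, and it reports PDGFRb+Fosb+ cells in vivo irrespective of dissociation.

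In the genome build mm10 (GRCm38, GENCODE vM21 gene models) the Fos family genes lie at chr12:85473890-85477273 (forward strand), chr7:19302696-19310051 (reverse strand) for Fosb and chr5:32135801-32157842 (forward strand) for Fosl2. Jun lies at chr4:95049034-95052222 (reverse strand). Junb, Jund and Ier2 are all on chromosome 8, at chr8:84974484-84978718 (reverse strand), chr8:70698949-70700616 (forward strand) and chr8:84661331-84662852 (reverse strand). Atf3 lies at chr1:191170296-191218039 (reverse strand) and Dusp1 at chr17:26505590-26562128 (reverse strand). Jun, Junb, Jund and Ier2 have a single exon in their principal transcript. Gene models overlap on the opposite strand for Jun (Junos), Junb (Prdx2), Jund (Gm11175), Atf3 (Gm24748) and Dusp1 (Ergic1). Whether the counting used strand is not given in the sources used here, so reads from the overlapping stretches cannot be assigned with certainty. Prdx2 was far below Junb, at 63.3 CPM on average in WT IntSCs and 98.8 CPM in WT LECs, and its log2 fold change between genotypes was -0.28 in IntSCs and 0.26 in LECs (edgeR adjusted p = 0.850 and 0.9999). Ergic1 was nearer to Dusp1, at 167.5 CPM on average in WT IntSCs, where Dusp1 had 331 CPM, and at 63.3 CPM in WT LECs. Its log2 fold change between genotypes was -0.53 in IntSCs and 0.39 in LECs (edgeR adjusted p = 0.433 and 0.9999), in each case opposite in sign to that of Dusp1. The Dusp1 model also overlaps 2 small models on its own strand and the pseudogene Gm8225 on the other. Of the 10 members, 5 carried the pentamer ATTTA, a letter run of unstable transcripts, at least 3 times in the 3′ UTR, against 30.3% of 21877 annotated genes. The members' 3′ UTRs were also longer, with a median of 1004 bases against 727, and the count was not adjusted for length.

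The letters upstream of the start site were read for the members with a RefSeq promoter entry (GRCm38.p6), which were Fos, Fosb, Fosl2, Jun, Junb, Jund, Atf3 and Dusp1. Egr1 and Ier2 had no entry. The Jund window, chr8:70697489-70697738 (forward strand), ends before the GENCODE model of Jund begins at base 70698949 and does not adjoin it. The counts below include this window. The 250 bases before the start are shown for Fos, Junb and Dusp1, whose genotype difference differed between the cell types at an edgeR adjusted p under 0.05. They are also shown for Jun, which did not pass (0.89 ± 0.35 on the log2 scale, SE, edgeR adjusted p = 0.203). Capitals mark TGACG on either strand, the core of the cAMP response element (CRE) that CREB and ATF proteins bind, and the sequences are written 5′ to 3′ along the gene's own strand.
Fos: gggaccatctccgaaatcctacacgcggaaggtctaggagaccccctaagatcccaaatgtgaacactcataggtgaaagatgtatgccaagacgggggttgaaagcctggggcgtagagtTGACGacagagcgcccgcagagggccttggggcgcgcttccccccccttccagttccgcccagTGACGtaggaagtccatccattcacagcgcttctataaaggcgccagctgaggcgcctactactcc
Junb: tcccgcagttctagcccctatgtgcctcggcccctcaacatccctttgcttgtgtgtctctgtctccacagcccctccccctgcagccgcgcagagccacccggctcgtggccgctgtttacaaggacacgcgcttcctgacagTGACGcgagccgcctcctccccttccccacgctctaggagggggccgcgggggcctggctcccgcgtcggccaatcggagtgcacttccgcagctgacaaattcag
Dusp1: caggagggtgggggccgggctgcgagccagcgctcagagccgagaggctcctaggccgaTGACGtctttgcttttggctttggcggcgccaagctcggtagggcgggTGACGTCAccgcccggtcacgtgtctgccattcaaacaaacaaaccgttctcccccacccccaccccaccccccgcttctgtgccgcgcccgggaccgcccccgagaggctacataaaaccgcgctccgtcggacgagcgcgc
Jun: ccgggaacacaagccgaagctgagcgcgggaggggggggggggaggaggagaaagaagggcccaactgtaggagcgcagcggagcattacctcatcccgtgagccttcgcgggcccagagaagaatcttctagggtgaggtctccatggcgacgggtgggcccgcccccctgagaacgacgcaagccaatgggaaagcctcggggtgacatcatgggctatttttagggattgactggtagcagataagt
These windows lie at chr12:85473640-85473889 (forward strand), chr8:84978749-84978998, chr17:26508473-26508722 and chr4:95052223-95052472 (the last 3 on the reverse strand). Fos held TGACG starting 129 and 66 bases before the start, Junb 106 bases before it, and Dusp1 191, 143 and 140 bases before it, the latter pair forming the full palindrome TGACGTCA. The Jun window held no match to TGACG. It held tgacatca, which differs from TGACGTCA in 1 letter and was not among the motifs searched. TGACG, searched on both strands, was found in 5 of the 8 promoters (Fos, Fosb, Junb, Atf3 and Dusp1) and in 17.8% of 32851 RefSeq promoters of the same length, and TGACGTCA in 1 of 8 and 1.55%. Fosb and Atf3, which hold TGACG, did not pass for the difference between the cell types either (edgeR adjusted p = 0.0521 and 0.968). Of the other motifs searched, GCGGGGGCG, a site bound by EGR proteins, was in Fosb and Fosl2 (2.57% of all promoters), and TATAAA was in Fos (12.4%). TGANTCA, the AP-1 site itself, was in none of the 8 (6.75% of all promoters), nor were the CArG box bound by serum response factor (1.47%), the ETS letters CCGGAAGT (2.88%) or the TEAD letters GGAATG (12.6%). A match is a description of these 250 bases and not of binding.

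Each library was a QuantSeq library, which reads the 3′ end of a transcript, so that a transcript gives about 1 read whatever its length and CPM values (reads scaled to a common library size) can be compared between genes without division by length. Total counts were between 5361250 and 10549233 per library, and the ribosomal RNA precursor Rn45s took 7.02% to 24.4% of them. CPM values below are scaled with factors computed over all 18 libraries. The LEC markers Prox1 and Flt4 were low in IntSCs (Prox1 0.0793 and 0.0804 CPM on average in WT and KO, Flt4 3.86 and 9.45 CPM). Pdpn, also on the LEC list, was at 239 and 329 CPM on average in WT and KO IntSCs. Stromal markers were low in LECs, with the exception of WT LEC 1. The 9 stromal markers summed to 2236 CPM there, 15.0% of the mean of WT IntSCs, against 643 to 684 CPM in the other WT LEC libraries and 320.1 to 539 CPM in KO LECs. Pdgfrb, on which the Cre and the sort of IntSCs rest, had a mean of 484 and 878 CPM in WT and KO IntSCs and 28.3 and 10.6 CPM in the LECs. Other marker sums were 238 to 503 CPM in IntSCs and 8947 to 14900 CPM in LECs for LEC genes, 1037 to 2336 and 86.4 to 248.9 CPM for smooth muscle, 277 to 788 and 1072 to 1805 CPM for blood endothelium, and 11.5 to 31.2 and 28.5 to 146 CPM for leukocytes. The blood endothelial sum of LECs was mainly Cldn5, at 1278 and 1294 CPM on average in WT and KO. Of the 7 blood endothelial markers tested between the WT cell types, 3 estimates were above 0 in LECs and 4 below. The edgeR test called Cldn5 higher and Ly6c1 lower (24.0 CPM in WT LECs, 113 CPM in WT IntSCs). Epithelial sums were 5.39 to 159 CPM in WT and 51.1 to 171 CPM in KO IntSCs, and 22.3 to 47.6 CPM in WT and 44.4 to 173 CPM in KO LECs. Between cell types the edgeR test called 9 of 10 LEC markers higher in LECs in both genotypes. The remaining LEC marker, Pdpn, was not called in WT (log2 fold change 0.36, edgeR adjusted p = 0.457). It was called lower in LECs of KO (-0.88, edgeR adjusted p = 0.019). In both genotypes 9 of 9 stromal markers were called lower in LECs, and so were 6 (WT) and 5 (KO) of 6 smooth muscle markers. The libraries labelled KO were not shown to be lower in the targeted genes. In IntSCs, Lats1 had a log2 fold change of -0.12 and Lats2 of 0.65 (edgeR adjusted p = 0.987 and 0.252), and since 3′ reads can survive the loss of internal exons these values do not check the labels. Paneth cell markers were higher in KO libraries of both cell types, with sums of 0.542 to 6.32 CPM in WT IntSCs and 40.1 to 119 CPM in KO IntSCs, and 0.0937 to 4.09 CPM in WT LECs and 18.9 to 91.2 CPM in KO LECs. In bulk libraries, fewer cells of a type and less RNA per cell cannot be told apart. The labels give no source animal for a library, but the mice per group that the study counts match the numbers of libraries, so that p-values here measure the spread between mice if each library is 1 mouse. The mice of each cell type came from more than 1 experiment, and since the experiment of a library is not given, it could not be a term of the fit.

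Junb, Jun and Egr1 were among the most abundant genes of IntSCs, at places 24, 28 and 42 of all genes in WT, whereas Fosl2 stood at place 852 and Atf3 at place 2307. The summed level of the 10 members was lower in LECs, as the stacked bars show. The sum was 8810 ± 1801 CPM (SD, n = 6) in the IntSCs of WT and 11380 ± 1566 CPM (SD, n = 5) in those of KO. It was 3449 ± 290.3 CPM (SD, n = 4) for LECs of WT mice and 1850 ± 73.3 CPM (SD, n = 3) for LECs of KO mice. Before scaling, they took 0.614% to 1.09% of all counts of a WT IntSC library, 0.914% to 1.27% in KO IntSCs, 0.298% to 0.383% in WT LECs and 0.195% to 0.201% in KO LECs. The ranges of WT and KO IntSCs overlapped, whereas those of IntSCs, WT LECs and KO LECs were separate. Junb was the highest member on average in every group. By its mean it stood at place 14 of all genes in KO IntSCs, 67 in WT LECs and 316 in KO LECs.

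**Figure D1:**
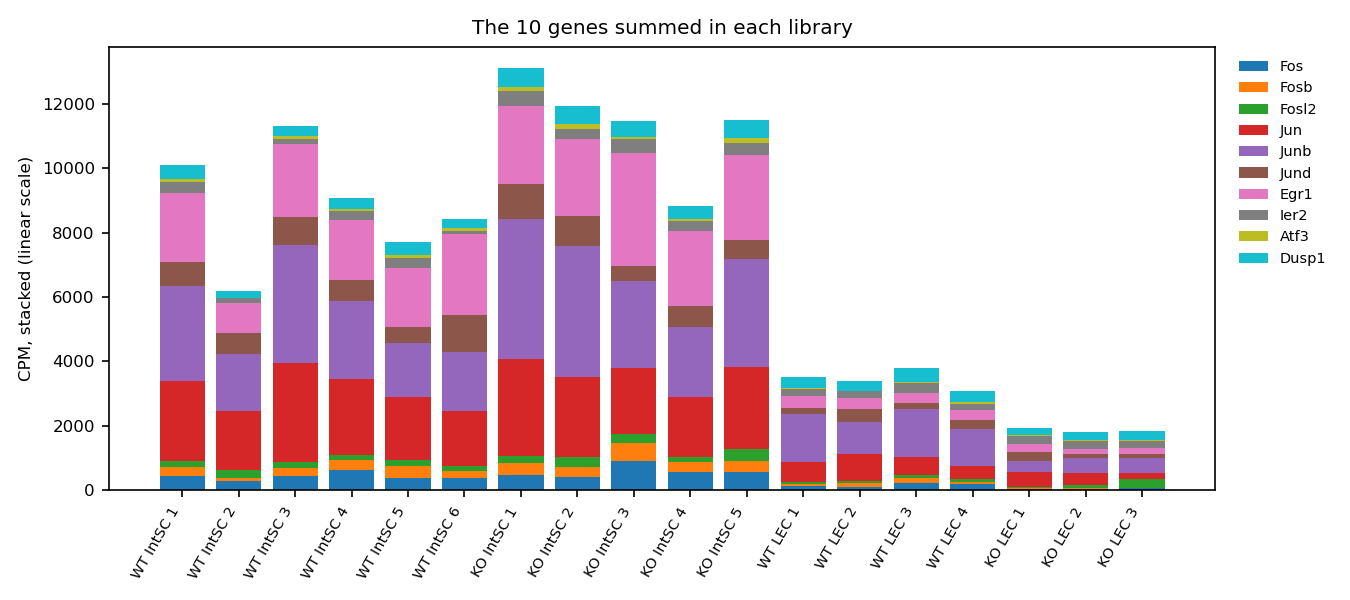
Stacked CPM (linear scale) of the 10 members in each of the 18 libraries, 1 bar per library and 1 colour per gene. The KO LEC bars reach 1791 to 1932 CPM and the WT LEC bars 3086 to 3783 CPM, while the IntSC bars reach 6201 to 13120 CPM, most of it Junb, Jun and Egr1.

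In WT IntSCs the means ran from Junb (2390 CPM) over Jun (2237 CPM), Egr1 (1923 CPM), Jund (768 CPM), Fos (422 CPM), Dusp1 (331 CPM), Fosb (258 CPM), Ier2 (225 CPM) and Fosl2 (182 CPM) to Atf3 (74.8 CPM). Of the 9 neighbouring pairs in this order, the ranges over libraries were separate for Fosl2 above Atf3 alone. In KO IntSCs Egr1 stood above Jun, and the ranges were separate for Jun above Jund and for Fosl2 above Atf3. In WT LECs they were separate for Junb above Jun and again for Fosl2 above Atf3, and in KO LECs no neighbours were separate. The upper members in LECs were Junb, Jun and, next by mean, Dusp1 in WT and Ier2 in KO, both of which stood below Jund in IntSCs.

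The FOS family genes encode the AP-1 partners that cannot pair with themselves. Fos, the archetype of the class, had a lowest, median and highest level of 279, 407 and 626 CPM in WT IntSCs. It had 460.5, 404, 898, 553 and 557 CPM in KO IntSC libraries 1 to 5. In LECs it had 138, 97.6, 229 and 179 CPM in WT libraries 1 to 4 and 32.0, 18.8 and 52.4 CPM in KO libraries 1 to 3. The IntSC groups overlapped, and every KO LEC library was under every WT LEC library, which in turn were all under the IntSCs. Fosb, a close relative that is induced with Fos, had 97.0, 270.5 and 369 CPM in WT IntSCs and 385, 309.7, 569.6, 325 and 345 CPM in KO IntSCs. In LECs it had 45.0, 134, 140.1 and 66.3 CPM in WT and 40.9, 43.5 and 12.7 CPM in KO. The KO LEC libraries again sat under all WT LEC libraries, by a margin of a few CPM between the nearest of them, and WT LECs 2 and 3 overlapped the WT IntSC range. Fosl2, which encodes FRA-2, a member that is less bound to acute stimuli, had 151, 178 and 241 CPM in WT IntSCs and 214, 306, 289, 147 and 372 CPM in KO IntSCs. It had 72.8, 62.9, 94.2 and 88.5 CPM in WT LECs and 37.4, 92.8 and 281 CPM in KO LECs. KO LEC 3 stood far above the other LEC libraries for this gene and within the IntSC range, so its group mean of 137 ± 128 CPM (SD, n = 3) has the widest relative spread of any member. As a share of the summed FOS family, Fosl2 made up 22.3% ± 8.63 (SD, n = 6) of it in IntSCs of WT and 22.0% ± 7.22 (SD, n = 5) of it in IntSCs of KO. The share was 24.2% ± 3.92 (SD, n = 4) in LECs of WT and 58.3% ± 23.7 (SD, n = 3) in LECs of KO. The ratio of Fos to Fosl2 was between 1.16 and 4.07 in the other 3 groups and 0.855, 0.202 and 0.186 in the KO LEC libraries.

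The JUN family genes encode the partners that can bind as JUN dimers or with FOS proteins. Jun had 1710, 2150 and 3078 CPM in WT IntSCs and 3031, 2492, 2029, 1882 and 2554 CPM in KO IntSCs. In LECs it had 608, 827, 564 and 418 CPM in WT and 465, 390.5 and 196 CPM in KO. The IntSC groups covered nearly the same range, and KO LEC 1 fell within the range of WT LECs. Junb had 1663, 2143 and 3680 CPM in WT IntSCs and 4337, 4087, 2702, 2171 and 3353 CPM in KO IntSCs. It had 1494, 1011, 1496 and 1141 CPM in WT LECs and 329, 446 and 444 CPM in KO LECs. The KO LEC libraries lay close together and all under the WT LECs, which lay under all WT IntSCs. Jund had 494, 717 and 1178 CPM in WT IntSCs and 1080, 919.6, 494, 639 and 588 CPM in KO IntSCs. In LECs it had 206, 403, 194 and 280 CPM in WT and 269, 145 and 133 CPM in KO, with KO LEC 1 within the WT range. The summed JUN family exceeded the summed FOS family in every library, by 6.38 ± 1.56 times (SD, n = 6) in WT and 5.60 ± 2.06 times (SD, n = 5) in KO among IntSCs. Among LECs the ratio was 6.75 ± 1.92 (SD, n = 4) in WT and 6.07 ± 3.71 (SD, n = 3) in KO. The ratio of Junb to Jun was 0.849 to 1.195 in WT IntSCs, 1.15 to 1.64 in KO IntSCs, 1.22 to 2.73 in WT LECs and 0.708 to 2.26 in KO LECs.

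Egr1, a zinc finger factor induced through the ERK pathway, had 916, 2003 and 2494 CPM in WT IntSCs and 2441, 2392, 3501, 2332 and 2645 CPM in KO IntSCs. It had 376, 340.2, 310.1 and 312 CPM in WT LECs and 266, 133 and 176 CPM in KO LECs. Its LEC libraries were all under its IntSC libraries, and KO LECs were all under WT LECs. Ier2, a small nuclear protein of the immediate early class, had 106, 222 and 340.1 CPM in WT IntSCs and 474, 325, 437, 325 and 376 CPM in KO IntSCs. It had 191, 193, 316 and 183 CPM in WT LECs and 234, 260.1 and 228 CPM in KO LECs. For this gene the LEC groups overlapped each other and WT IntSCs. Atf3, a stress-induced bZIP factor that pairs with JUN proteins, had 0, 90.8 and 97.8 CPM in WT IntSCs and 104, 139, 68.5, 61.7 and 146 CPM in KO IntSCs. It had 37.2, 26.4, 22.0 and 57.6 CPM in WT LECs and 48.9, 29.4 and 30.9 CPM in KO LECs. The value of 0 is WT IntSC 2, where 3 counts would be 0.511 CPM, and the other WT IntSCs were between 72.9 and 97.8 CPM. Dusp1, the phosphatase that dampens the kinases upstream, had 221, 324 and 426 CPM in WT IntSCs and 595, 563, 489.8, 406 and 572 CPM in KO IntSCs. It had 362, 302, 418 and 361 CPM in WT LECs and 209, 232 and 273 CPM in KO LECs. Its 3 KO LEC libraries were under all WT LECs, and 4 of its 5 KO IntSC libraries were above all WT IntSCs.

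**Figure D2:**
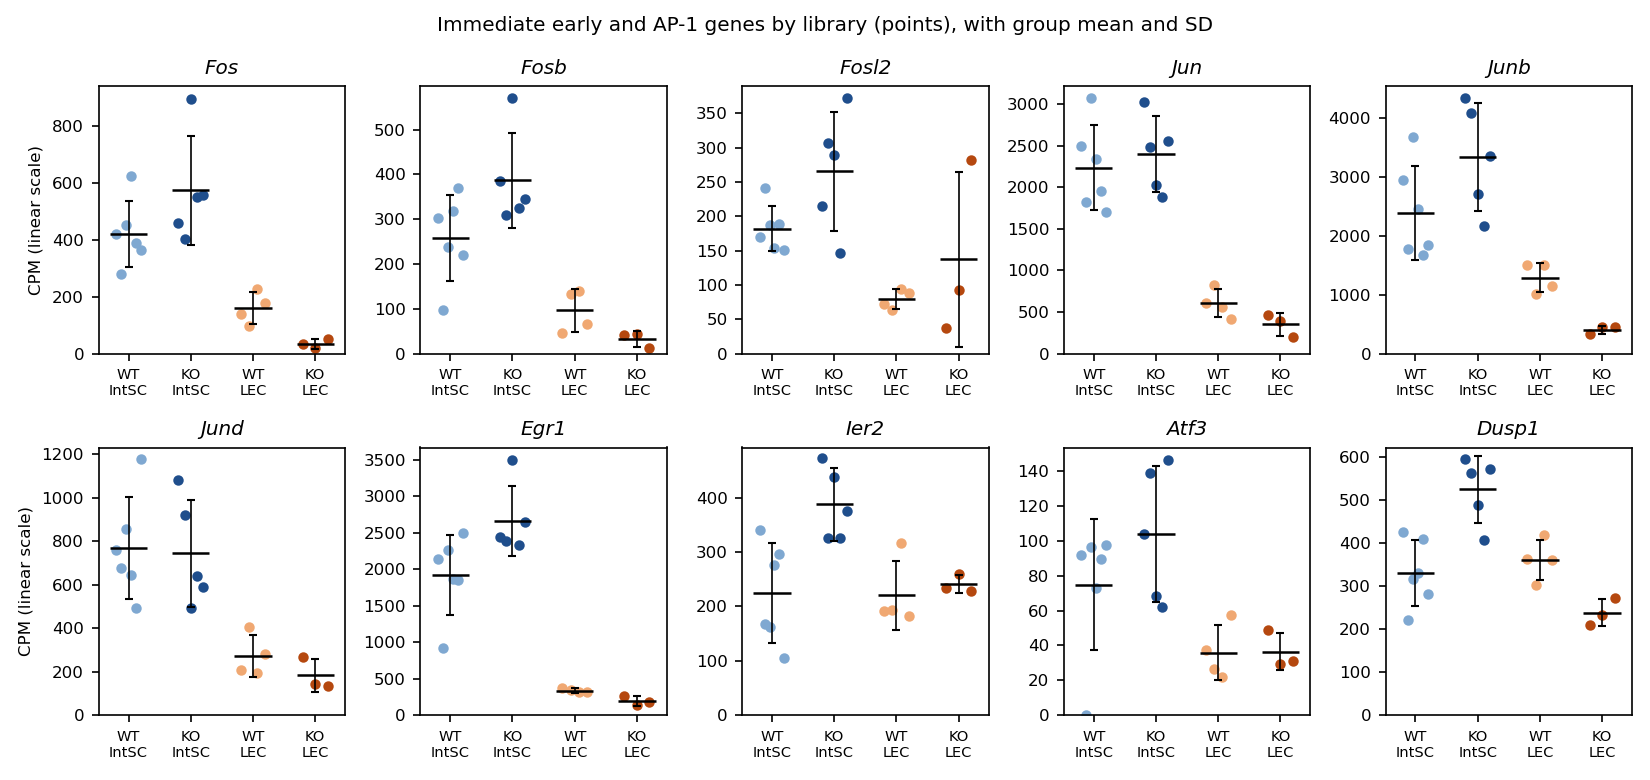
CPM (linear scale, 1 panel per gene) of the 10 members; points are libraries, the horizontal line is the group mean and the bar the SD, with 6 and 5 IntSC and 4 and 3 LEC libraries of WT and KO. Fos, Fosb, Junb, Egr1 and Dusp1 have all KO LEC points under all WT LEC points, and 1 WT IntSC point for Atf3 is at 0.

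The first comparison asks what the loss of LATS1/2 does to these genes in the targeted stromal cells. In IntSCs, 9 of the 10 members had a higher estimate in KO than in WT and none passed the threshold of an adjusted p under 0.05 (edgeR quasi-likelihood test, Benjamini-Hochberg over 12421 genes). Their median log2 fold change was 0.47, against 0.00 for all genes tested. In this comparison 1.47% of all genes passed, 9.81% had an unadjusted p under 0.05 and 1.63% had all KO libraries above all WT libraries. Of the members, 6 had an unadjusted p under 0.05 and 0 were without overlap. Dusp1 was nearest to the threshold, at 525 ± 77.4 CPM (SD, n = 5) in KO and 331 ± 77.0 CPM (SD, n = 6) in WT, which is 0.67 ± 0.18 as a log2 fold change (SE, adjusted p = 0.0720, edgeR). It passed with DESeq2 (adjusted p = 0.0128) and limma-voom (adjusted p = 0.0478). Ier2 followed at 0.79 ± 0.24 (SE, edgeR adjusted p = 0.133), from 225 ± 92.2 CPM (SD, n = 6) in WT to 387 ± 66.8 CPM (SD, n = 5) in KO. Fosb, Fosl2, Junb, Egr1, Fos and Atf3 had log2 fold changes between 0.44 and 0.59 with adjusted p between 0.316 and 0.946, and Atf3, with 1 WT library at 0, had an SE of 0.81. Jun (0.10 ± 0.17, SE) and Jund (-0.05 ± 0.23, SE) were the members nearest to 0. Stromal markers moved with genotype in the same libraries: 8 of 9 had a lower estimate in KO IntSCs (median log2 fold change -0.54), and Col3a1 and Col6a2 passed, while Pdgfrb itself had a higher estimate (0.86, edgeR adjusted p = 0.0614). Of the other marker lists, Ly6c1 of blood endothelium, Krt19 of epithelium and Lyz1 and Reg3g of Paneth cells rose past the threshold. Estimates were above 0 for 6 of 7 blood endothelial markers (median 0.96, 5 with an unadjusted edgeR p under 0.05). They were above 0 for 5 of 6 smooth muscle, 6 of 7 epithelial and 3 of 3 Paneth markers. LEC and leukocyte markers had as many estimates above 0 as below. The part of these cells in the members' values was not tested.

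The second comparison asks whether LECs, which the Pdgfrb-driven Cre is not meant to reach, differ with the genotype of the mouse. Junb fell in KO LECs, and it was the only member past the threshold. Its mean was 406 ± 66.7 CPM (SD, n = 3) in KO and 1285 ± 248 CPM (SD, n = 4) in WT, which is -1.59 ± 0.24 as a log2 fold change (SE, adjusted p = 0.0259, edgeR). Only 0.0376% of the 10639 genes tested passed with a lower level, and Junb had the fifth smallest p among all of them. The call was lost when any 1 of the 7 LEC libraries was left out, with log2 fold changes of -1.69 to -1.44 and adjusted p of 0.0511 to 0.204. Fos had the largest difference of the members, -2.15 ± 0.46 (SE), from 161 ± 56.2 CPM (SD, n = 4) in WT to 34.4 ± 16.9 CPM (SD, n = 3) in KO, with an edgeR adjusted p of 0.140. It passed with DESeq2 (adjusted p = 0.00296), without the count filter (adjusted p = 0.0194) and in a fit of all 4 groups (adjusted p = 0.00116).

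The remaining members did not pass in LECs. The log2 fold changes were -1.51 ± 0.59 for Fosb, -0.74 ± 0.29 for Egr1, -0.72 ± 0.32 for Jun, -0.52 ± 0.25 for Dusp1 and -0.51 ± 0.35 for Jund (SE), with adjusted p of 0.518 to 0.926. Ier2 (0.20 ± 0.29) and Atf3 (0.10 ± 0.66) were near 0. Fosl2 had a positive estimate of 0.87 ± 0.53 (SE, edgeR adjusted p = 0.850) that rests on KO LEC 3, and without that library it was -0.21. In all, 7 of the 10 members had a lower estimate in KO. The members' median log2 fold change was -0.62, against -0.03 for all genes. An unadjusted p under 0.05 was found for 5 members and 7.87% of all genes. All KO libraries lay under all WT libraries for 5 members (Fos, Fosb, Junb, Egr1 and Dusp1) and for 6.45% of all genes.

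Stromal transcripts moved with genotype in the same LEC libraries. All 9 stromal markers had a lower estimate in KO LECs (median log2 fold change -1.34), and none passed by edgeR, with 3 at an unadjusted p under 0.05. Their summed level was 643 to 2236 CPM in WT LECs and 320.1 to 539 CPM in KO LECs, and none of the 9 was at 0 in every library of a group. Without WT LEC 1, the library with the most stromal transcripts, the log2 fold change of Junb was -1.51 (edgeR adjusted p = 0.0906) and that of Fos -2.22 (adjusted p = 0.288). The Paneth and epithelial sums given above were also higher in KO LECs by median, with estimates above 0 for 4 of the 4 epithelial markers tested (median log2 fold change 1.92), of which none passed by edgeR and 1 had an unadjusted p under 0.05. The part of these cells in the members' values was not tested. Fewer genes had a read in KO LECs (10576 to 11001) than in WT LECs (11490 to 12059), while total counts overlapped.

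**Figure D3:**
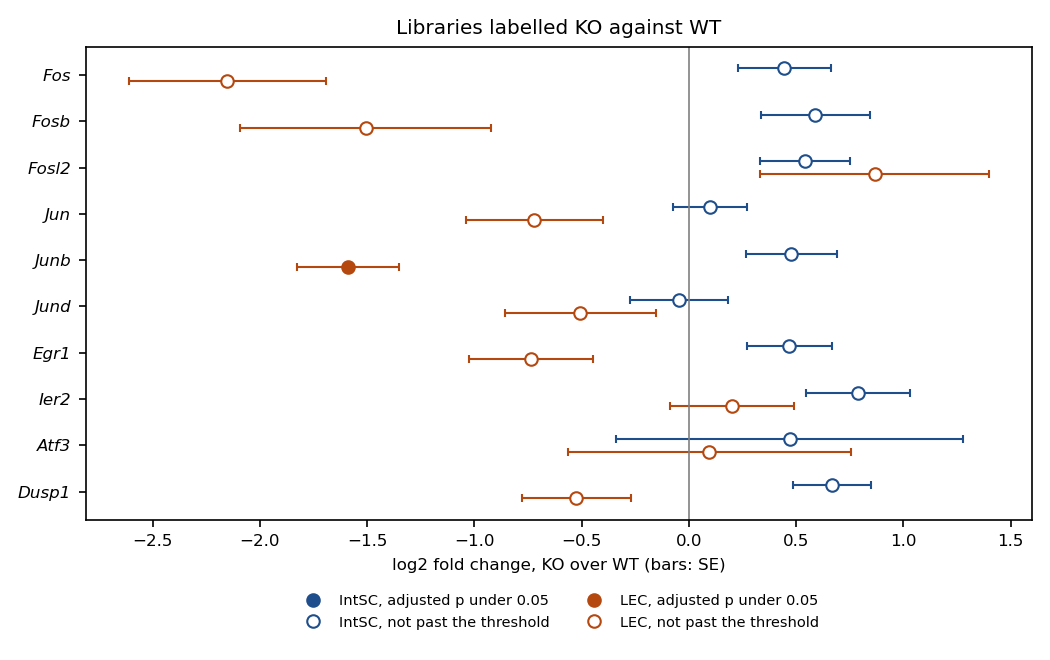
log2 fold change of KO over WT (x axis, bars are SE) for the 10 members in IntSCs (blue, n = 5 and 6) and LECs (orange, n = 3 and 4); filled points have an edgeR adjusted p under 0.05. Junb in LECs, at -1.59, is the only filled point, and Fos lies at 0.44 in IntSCs and -2.15 in LECs.

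The genotype differences of the cell types were then set against each other in 1 fit of all 4 groups. The difference was higher in IntSCs than in LECs for Fos, Junb and Dusp1, which passed the threshold, while 1.42% of all 14015 genes passed in that direction. In the other direction 0.278% passed. Fos had the largest difference, 2.67 ± 0.45 on the log2 scale (SE, edgeR adjusted p = 0.00233), and Junb had 2.14 ± 0.35 (SE, adjusted p = 0.00203). Both passed with every single library left out. This fit gives each gene 1 spread for both cell types. The spread shared by all genes, as a coefficient of variation, was 0.68 with IntSCs fitted alone and 1.09 with LECs fitted alone. For KO against WT in LECs, the fit of all 4 groups called 538 genes in place of 7, so the adjusted p-values here depend on which groups are fitted together. That fit also tested 14015 genes in place of 10639 and used other scaling factors, and the part of the shared spread was not tested. Dusp1 had 1.26 ± 0.30 (SE, adjusted p = 0.0285), and it lost the call without WT IntSC 6, KO IntSC 1, KO IntSC 2, KO IntSC 5 or KO LEC 1, with an adjusted p of up to 0.0668. Fosb (2.16 ± 0.57, SE, adjusted p = 0.0521) and Egr1 (1.27 ± 0.34, SE, adjusted p = 0.0576) were just outside the threshold, and both passed with DESeq2. Jun, Ier2, Jund, Atf3 and Fosl2 had adjusted p of 0.203 to 0.968. The median of all genes in this contrast was 0.24, and 0.13 with RLE scaling, so the members are to be read relative to that shift, and their own median was 1.08. Of the stromal markers, 2 of 9 also passed with a higher value in IntSCs (median 0.87), and their part in the members' values was not tested.

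The third comparison, LECs against IntSCs of the WT group, asks how the cell types differ without the deletion. It shares the WT libraries with the comparisons above. In WT, 7 members fell from IntSCs to LECs past the threshold, while 12.3% of 12203 genes passed with a lower level in LECs. Egr1 differed most, with 335 ± 30.7 CPM (SD, n = 4) in LECs and 1923 ± 551 CPM (SD, n = 6) in IntSCs, which is -2.52 ± 0.26 as a log2 fold change (SE, adjusted p = 4.25e-06, edgeR). Jun followed at -1.88 ± 0.24 (SE, adjusted p = 2.85e-05), then Jund at -1.50 ± 0.28 (SE, adjusted p = 0.00104). Fosb (-1.41), Fos (-1.38), Fosl2 (-1.18) and Junb (-0.89) had adjusted p of 0.00173 to 0.0171. The groups did not overlap for 6 members, those called except Fosb, and for 11.4% of all genes in that direction. Junb lost its call without WT LEC 4 (adjusted p = 0.0524).

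Ier2, Atf3 and Dusp1 did not pass between WT LECs and WT IntSCs. The estimate for Ier2 was -0.02 ± 0.31 (SE) and for Dusp1 0.13 ± 0.22 (SE), with adjusted p of 0.979 and 0.745. The estimate for Atf3, -1.06 ± 0.85 (SE, adjusted p = 0.448), is tied to WT IntSC 2, and without that library it was -1.33 (adjusted p = 0.0121). Its sign turned with limma-voom (0.10, adjusted p = 0.959).

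In the KO group, 9 members fell from IntSCs to LECs past the threshold, while 16.8% of 12758 genes passed with a lower level. Fos had the largest difference, -4.07 ± 0.42 (SE, edgeR adjusted p = 8.58e-05), or 16.8-fold lower in LECs. Egr1 had -3.80 ± 0.29 (SE, adjusted p = 1.10e-05), or 13.9-fold lower, and Fosb -3.58 ± 0.45 (SE, adjusted p = 0.000275). The JUN family followed with -3.04 for Junb, -2.77 for Jun and -2.03 for Jund, with adjusted p of 3.37e-05 to 0.00209. Atf3 (-1.51 ± 0.39, SE), Dusp1 (-1.14 ± 0.20, SE) and Ier2 (-0.69 ± 0.20, SE) had adjusted p of 0.00252 to 0.0315. All 9 were without overlap, as were 20.9% of all genes in that direction. Ier2 lost its call without any of KO IntSC 1, 3 or 5 or KO LEC 1 or 3, with an adjusted p of up to 0.0756. In a fit of all 4 groups Ier2 (edgeR adjusted p = 0.109) and Atf3 (adjusted p = 0.239) lost their calls. Fosl2 did not pass (-0.96 ± 0.55, SE, adjusted p = 0.251), and without KO LEC 3 it was -2.02 (adjusted p = 0.0112). The median of all genes was -0.21 here and -0.04 in WT, and that of the members -2.40 and -1.28.

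**Figure D4:**
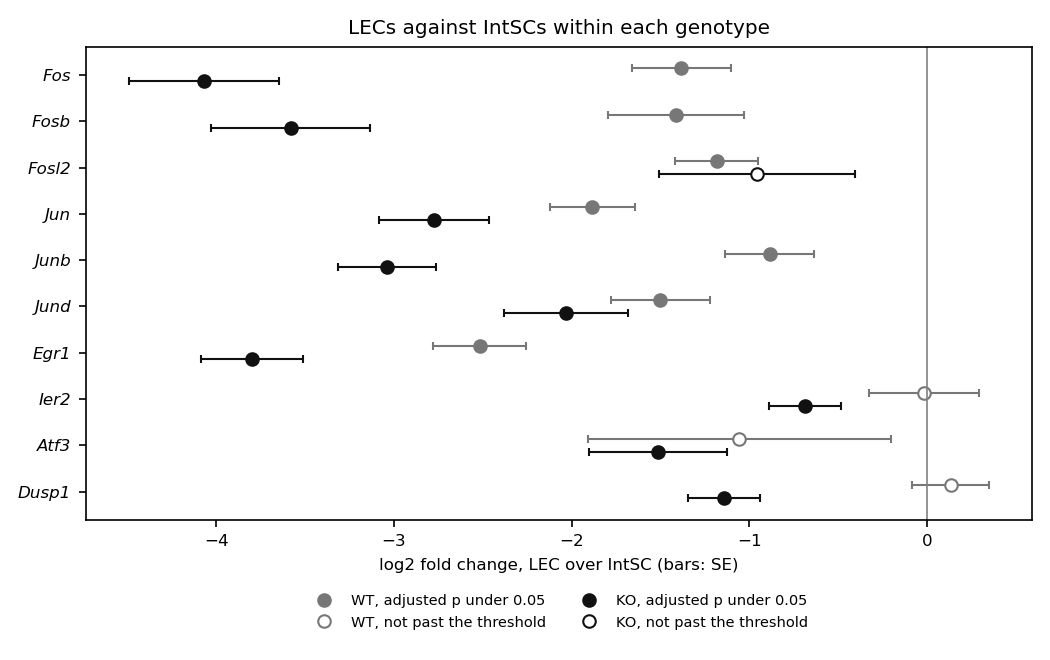
log2 fold change of LECs over IntSCs (x axis, bars are SE) for the 10 members in WT (grey, n = 4 and 6) and KO (black, n = 3 and 5); filled points have an edgeR adjusted p under 0.05. In WT, Ier2, Atf3 and Dusp1 are open, and in KO Fosl2 alone is open, with Fos at -1.38 in WT and -4.07 in KO.

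A wider list of 43 other immediate early genes was followed beside the members. In IntSCs 1 of 41 tested rose with KO and none fell, with 34 estimates above 0 and a median of 0.42. The one that rose was Pim1, a kinase induced by cytokines, at 96.8 ± 37.1 CPM in KO and 42.0 ± 11.3 CPM in WT (SD; log2 fold change 1.21, edgeR adjusted p = 0.0263). In LECs none of 36 passed, 8 had an unadjusted p under 0.05 and the median was -0.16. The difference between the cell types passed for 4 of 41, all higher in IntSCs. These were Ppp1r15a (1.84, adjusted p = 0.00791), which reverses the stress-induced block of translation, Ier3 (1.92, adjusted p = 0.00896), Nfkbia (1.04, adjusted p = 0.0364), the inhibitor of NF-kappaB, and the orphan nuclear receptor Nr4a2. Nr4a2 had 0.222 CPM on average in KO LECs, under the level of 3 counts, and 20.4 CPM in WT LECs, so no fold is given for it.

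Between cell types, this list moved in both directions. In WT, where 10.3% of all genes tested rose in LECs and 12.3% fell, 7 of 37 rose and 14 fell, with a median of -0.83. The smallest p belonged to Dusp2, another phosphatase of the kinases, which was higher in LECs (319.6 against 11.8 CPM, log2 fold change 4.76). Nfkbia also rose (1.14), while the stress genes Gadd45b (-2.21) and Gadd45g (-2.79), the clock gene Per1 (-2.26) and Zfp36 (-2.22), which speeds the decay of AU-rich transcripts, fell, all with an edgeR adjusted p of 0.000429 or less. In KO, where 9.11% of all genes tested rose in LECs and 16.8% fell, 4 of 41 rose and 20 fell, with a median of -0.84. Those with the smallest p all fell: Ppp1r15a (-2.52), Gadd45g (-4.28) and the antiproliferative genes Btg2 (-1.93) and Btg1 (-2.02), with adjusted p of 0.000710 or less, and Nr4a2 and Egr2, of which Egr2 had no read in KO LECs and 41.6 CPM in KO IntSCs.

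Among other bZIP genes, whose products pair with or resemble those of AP-1, the edgeR test called 0 of 13 with genotype in IntSCs (0 with an unadjusted p under 0.05) and 0 of 11 in LECs (2 with an unadjusted p under 0.05). Between cell types, Maf (3.15 in WT and 3.53 in KO) and Maff (2.67 and 2.03) rose in LECs and Jdp2, a partner that represses AP-1 sites, fell (-1.48 and -2.04), with edgeR adjusted p of 0.00895 or less in WT and 0.0291 or less in KO. In KO, Atf4 (-0.96), Mafg (-1.35) and Batf, at 0.162 CPM in LECs, also fell. Of 20 genes that relay signals to immediate early promoters, 0 passed with genotype in IntSCs (0 of 20 with an unadjusted p under 0.05) and 0 of 19 in LECs (1 with an unadjusted p under 0.05). Elk3, a cofactor of serum response factor, was higher in LECs (2.62 in WT and 2.88 in KO), the kinase gene Mapk3 was higher in WT (0.86), and Mkl2, another cofactor of that factor, was lower in KO LECs (-4.18, 1.63 CPM) and differed between the cell types (4.04, adjusted p = 0.0390).

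Textbook AP-1 targets did not follow 1 direction. In IntSCs 1 of 12 rose with KO and 1 fell: Mt2, a metallothionein, at 1.12 (edgeR adjusted p = 0.0271), and Ccnd1, the cyclin of cell cycle entry, at -1.97 (adjusted p = 0.00859), from 345 ± 114 to 87.8 ± 56.7 CPM (SD, n = 6 and 5). In LECs none of 9 passed, 2 had an unadjusted p under 0.05, 8 estimates were above 0 and the median was 1.35, with Mt2 at 1.45 (adjusted p = 0.197) and Mt1 at 1.35 (adjusted p = 0.266). Between cell types in WT, Mt1 (-2.63), Mt2 (-2.07) and the matrix protease gene Mmp10 (-5.04) fell in LECs and Plau, the urokinase gene, rose (4.78). In KO, 4 of 13 rose in LECs and 6 fell, with Plau (5.30) and Ccnd1 (2.47) up, Mt1 (-1.65) and Mt2 (-1.83) down, and Mmp3 and Mmp10 at 0 and 0.181 CPM in KO LECs. No target passed for the difference between the cell types by edgeR, and 3 of 13 had an unadjusted p under 0.05.

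Heat shock genes, which respond to protein damage, were taken as a second stress class. In IntSCs 0 of 12 passed with genotype by edgeR and 1 had an unadjusted p under 0.05. In LECs none passed, but 10 of 12 estimates were below 0, 5 had an unadjusted p under 0.05, and the median was -0.64, near that of the members. Hspb1 had the smallest p in LECs (197 ± 37.7 CPM in WT and 54.9 ± 10.7 CPM in KO, SD, n = 4 and 3, log2 fold change -1.77, edgeR adjusted p = 0.0796). For the difference between the cell types, Hspb1 (2.26, adjusted p = 0.00614) and the near-identical pair Hspa1a (2.78) and Hspa1b (3.02), among which reads may be divided arbitrarily, passed with a higher value in IntSCs. Between cell types, Hspb1 (1.51), Hsph1 (1.60) and Hspa8 (1.06) were higher in LECs of WT, and Hspa1a (-3.66), Hspa1b (-2.21) and Hsp90aa1 (-1.63) were lower in LECs of KO.

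Among libraries of 1 group, the members did not move as a block. After subtraction of the 4 group means of log2(CPM + 1), the median Pearson correlation over the 45 pairs of members was 0.23 across 18 libraries, which share depth and composition, and 34 pairs were above 0. Egr1 and Atf3 had the highest value (0.76) and Fosl2 and Jun the lowest (-0.54). The value for Egr1 and Atf3 is tied to WT IntSC 2, where Atf3 had 0 CPM and Egr1 916 CPM, each the lowest of its group. The pair correlations were not recomputed without that library. WT IntSC 2 was the lowest WT IntSC library for 5 members (Fos, Fosb, Egr1, Atf3 and Dusp1) and the highest for Fosl2. KO IntSC 4 was the lowest of its group for 7 members, and WT LEC 3 the highest of its group for 6. The genes whose deviations were most like the mean of the members were Git2 (r = 0.95), Uvssa (0.95), Flot1 (0.91), Tppp (0.91), Ube2k (0.90), Abi2 (0.89), Vldlr (0.87) and Tmem2 (0.87), of 6712 genes compared over 18 libraries, and none was on the immediate early lists. The order of this list is tied to WT IntSC 2, without which Git2, Uvssa, Tppp and Ube2k stayed first at r of 0.75 to 0.85 and the other 4 genes fell to places 11 to 56. For Junb alone they were Atp5l (0.87), Bik (0.86), Rps14 (0.82), Ier3 (0.80) and Rps27a (0.80), of which Ier3 is on the immediate early list. Without WT IntSC 2, Rps9 and Rab5b took the places of Ier3 and Rps27a.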

How the data were processed

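RNA of 18 sorted mouse libraries was profiled by QuantSeq 3′ sequencing. The values the authors deposited are raw counts, whole numbers of reads for each gene symbol with no normalisation, in a separate table for every library. Their methods name TopHat and Cufflinks, while the submitters' processing notes name Bowtie2, edgeR and the build mm10. The counting program, its strand setting and the annotation were not given in the sources used here. Each table held 23282 rows, and the rows of the 35 symbols that stood on more than 1 row were summed. Total counts per library ranged from 5361250 to 10549233, where 3 counts equal 0.560 to 0.284 CPM, a limit that covers counting error only.

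Groups and replicate numbers came from the titles. The test was edgeR's robust quasi-likelihood fit (version 4.0.16, R 4.3.3) with TMM factors, filterByExpr and Benjamini-Hochberg adjustment over all genes tested, at a threshold of 0.05. Each fit held the groups compared, and all 4 groups for the difference between the genotype effects of IntSCs and LECs (the interaction). All 10 members passed the count filter in every fit. The F statistic of that fit gave the standard errors. CPM shown were scaled with TMM factors over all 18 libraries. Alternatives were DESeq2 1.42.0, limma-voom (limma 3.58.1), upper-quartile or RLE factors, a filter of 1 read or of a mean count of 10, the replicate number as a block, removal of Rn45s, all 4 groups in 1 fit, CPM without factors and each library left out in turn. The procedure was tested on simulated data.

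The members and the gene lists were chosen with earlier results of these data known. The genes named were all members, up to 6 genes with the smallest p among those past the threshold in each other list, Lats1, Lats2 and Pdgfrb, and the 8 genes of at least 20 CPM on average most like the members (5 for Junb). Genes named beside these, such as the heat shock and metallothionein genes in LECs, Prdx2, Ergic1, Rps9, Rab5b, Prox1 and Flt4, were chosen after their values were seen. Marker lists were those of LECs, stromal, smooth muscle, blood endothelial, epithelial and Paneth cells and leukocytes. Gene models came from GENCODE vM21 and promoters from RefSeq, both of GRCm38.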

Additional observations from a re-analysis of the deposited data

Results flagged for a closer look

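Of 30 sets of 4 to 6 libraries (10 members in 3 groups), 4 held a library set apart from the others by Dixon's test, where chance gives about 1.5. KO IntSC 3 had 569.6 CPM of Fosb (the others 309.7 to 385 CPM) and 3501 CPM of Egr1 (the others 2332 to 2645 CPM). WT LEC 3 had 316 CPM of Ier2 (the others 183 to 193 CPM). WT IntSC 2 had 0 CPM of Atf3, against 72.9 to 97.8 CPM in the other WT IntSCs.

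The genotype difference differed between the cell types for 3 members by the interaction test of edgeR. The difference, IntSC minus LEC on the log2 scale, was 2.67 for Fos, 2.14 for Junb and 1.26 for Dusp1. For all 3 the estimate was positive in IntSCs and negative in LECs, where Junb alone passed, and within IntSCs none of the 3 passed on its own.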

How the results depend on the processing

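The count of members past the threshold in IntSCs (0) was 1, Dusp1, with DESeq2 and with limma-voom. In LECs (1) it was 2, Junb and Fos, with DESeq2, without the count filter and with all 4 groups in 1 fit, and 0 with any single library left out. For the difference between the cell types (3) it was 5 with DESeq2 and 2 to 4 with a library left out. LECs against IntSCs gave 6 to 8 members in WT and 8 or 9 in KO with a library left out, and 7 in KO with all 4 groups in 1 fit, where Ier2 and Atf3 were lost. Some estimates that were not called changed sign, among them Atf3 in WT LECs against IntSCs (-1.06) and Fosl2 in LECs (0.87). With limma-voom Ier2 was at 0.032 and Atf3 at 0.10 in WT LECs against IntSCs, and Fosl2 at 0.14 for the difference between the cell types. With a library left out, Jun ranged from -0.0011 to 0.22 and Jund from -0.22 to 0.12 in IntSCs, Fosl2 from -0.21 to 1.33 and Atf3 from -0.15 to 0.41 in LECs, Ier2 from -0.25 to 0.13 in WT LECs against IntSCs, and Fosl2 from -0.69 to 0.84 for the difference. The cause was not tested. Of the single-member values, 75 of 80 in the interaction and 87 of 90 in IntSCs kept direction and side of the threshold under the alternatives other than left-out libraries.

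With the replicate block, the members called numbered 0 in IntSCs, 0 in LECs (Junb at -1.64, adjusted p = 0.135), 6 in WT (without Fosb) and 6 in KO LECs against IntSCs (without Ier2, Atf3 and Dusp1, at adjusted p of 0.195, 0.118 and 0.0502), and 2 for the difference, where Dusp1 lost its call (1.40, adjusted p = 0.277). Jund in IntSCs was then at 0.088 and Fosl2 for the difference at 0.21. For same-numbered libraries, the mean correlation of their deviations from the group means was 0.0503 between the WT cell types and -0.0041 between the KO cell types. It was 0.0492 between the IntSC groups and -0.0075 between the LEC groups. The highest single values were 0.0825, 0.0475, 0.141 and 0.0194 in the same order, so only the IntSC groups held a pair above 0.1. Differently numbered libraries had means of -0.0100, 0.00083, -0.0089 and 0.0025 in that order. The submitters' names share a code across cell types, such as Con1-LEC with Con1-tdT in WT and PB1-LEC with Pb1-tdT in KO. Whether that code marks a shared mouse or a shared experiment is not given in the sources used here. The tests without the block treat these libraries as independent.

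The number of genes called moved more. In IntSCs it was 183, with 376 by DESeq2, 122 with the block, 27 with all 4 groups and 99 to 186 with a library left out. In LECs it was 7, with 309 by DESeq2, 538 with all 4 groups, 32 without the filter, 20 at a mean count of at least 10, 12 by limma-voom, 3 with the block and 0 to 16 with a library left out. The block gave 1596 in place of 2763 for WT and 895 in place of 3302 for KO LECs against IntSCs. For the difference, 238 became 1023 by DESeq2, 143 by limma-voom, 16 with the block and 161 to 461 with a library left out. Among scaling alternatives, upper-quartile factors moved the median of all genes in WT LECs against IntSCs from -0.04 to -0.15.

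In an alternative chosen after seeing the data, likeness to the members was recomputed without WT IntSC 2, where 2 of the 8 genes most alike also had no read. Git2 (r = 0.85), Uvssa (0.84), Tppp (0.79) and Ube2k (0.75) stayed first over 17 libraries, while Tmem2, Abi2, Flot1 and Vldlr fell to places 11, 14, 20 and 56.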
